A study of Mus musculus with 6 samples.

Results

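The genes described here are 10 transcripts with large differences in the livers of mice lacking SRC-2 that lie outside the well-known pathways of liver metabolism: Dmbt1, Cnmd, 9030619P08Rik, Omd, Nat8, Treh, Gal3st1, Krt23, Lrtm2 and Bhlhb9. They are 10 of the 18194 genes that the platform's annotation names with a single symbol. Each was found by an exact match of its symbol, and each had 1 probe set. They were chosen by the size of the difference between the genotypes on these same arrays, so their differences are given as a description and were not tested. The study set SRC-2 null livers (SRC-2-/- mice, 3 arrays) against wild-type livers (3 arrays). Both groups were female mice of a C57 background, ovariectomized at 6 weeks of age and killed 2 weeks later under Avertin anesthesia. The labels describe neither the allele nor the C57 substrain, and nothing in them says that the replicates are separate animals.

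SRC-2, encoded by Ncoa2, is a coactivator: it binds hormone-activated nuclear receptors and other transcription factors and helps them to switch on their target genes. In liver it is known for its part in glucose release, bile acid handling and lipid metabolism. The 10 genes are better known from elsewhere. Dmbt1, Cnmd and Omd encode glycoproteins of mucosal surfaces, cartilage and bone. Treh and Gal3st1 encode enzymes known from the brush border of kidney and intestine and from myelin and kidney. Krt23 encodes a filament protein of epithelia, and Lrtm2 a little-studied membrane protein.

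Values are log2 expression values, so a difference of 1 is a 2-fold change in level, and low values hold mostly background. Array medians lay between 4.17 and 4.24. A gene was tested where its mean over the 6 arrays reached 4.21, the median of all probe sets, which left 11895 genes. All 10 genes passed this limit, Dmbt1 and Cnmd with a SRC-2 null mean below it and Treh and Lrtm2 with a wild-type mean below it. Ncoa2 had 5.60, 5.44 and 5.86 in SRC-2 null livers, against 7.74, 7.92 and 8.53 in wild-type livers (log2 fold change -2.44, SE 0.20, limma adjusted p = 0.000354). None of 12 hepatocyte markers was called, and their summed level was 17.01 to 17.03 in SRC-2 null and 17.02 to 17.04 in wild-type livers. Replicate 3 of both genotypes stood apart from replicates 1 and 2: its deviations from the group means correlated across genes between the genotypes (r = 0.517). Those of replicates 1 and 2 correlated with it at -0.266 to -0.344. Such negative values follow in part from the 0.517, because the deviations within a group cancel out. Because of the 0.517 each difference is also given within each replicate number.

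Of the 10 genes, 3 were lower and 7 higher in SRC-2 null liver. The groups did not overlap for any of the 10, a property that the choice of the genes fixes and that 23.4% of all tested genes shared. The lower genes had the larger differences, with a median of -2.77 on the log2 scale, against a median of 1.35 for the higher genes and 0.00 for all tested genes.

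**Figure D1:**
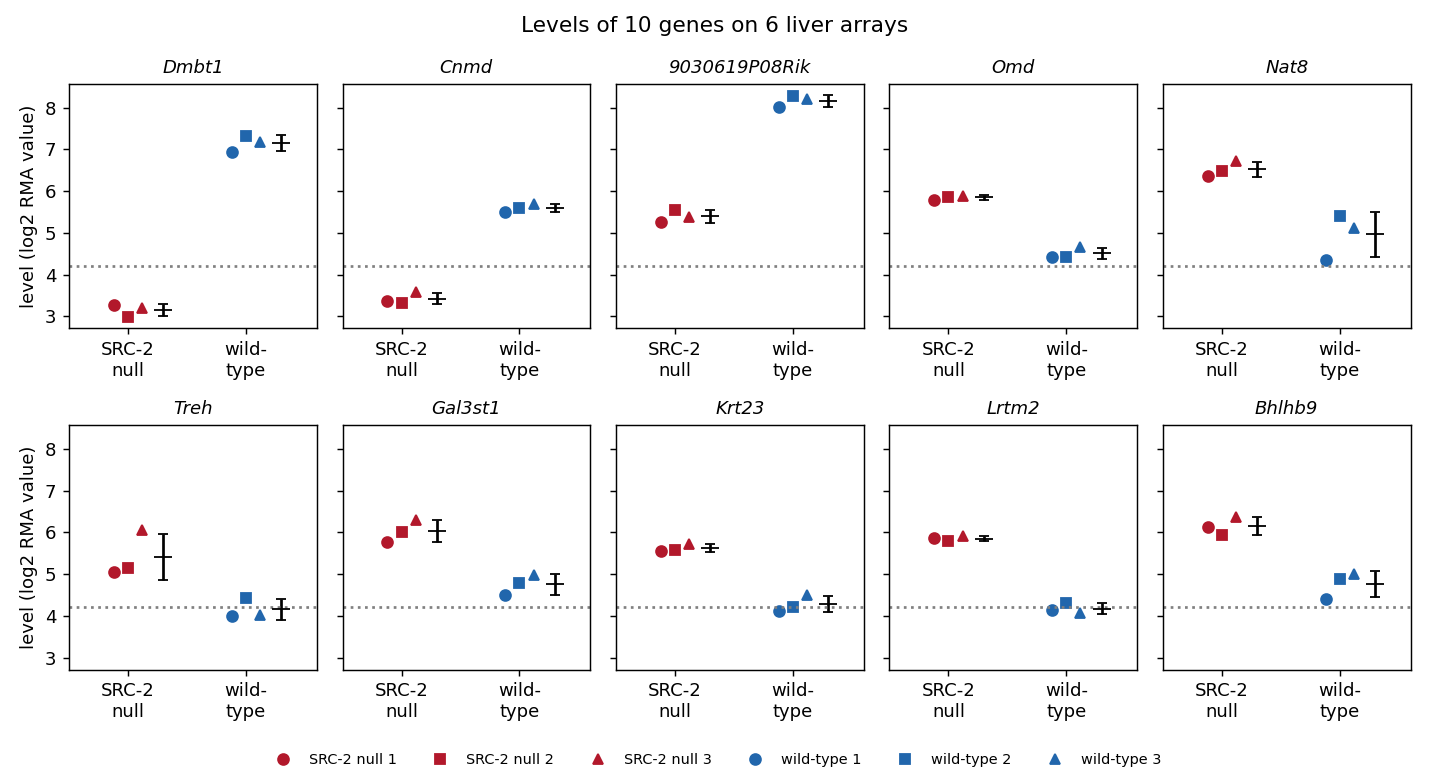
Levels (log2 RMA values) of the 10 genes on each of the 3 SRC-2 null and 3 wild-type arrays; symbols give the replicate number, and the bar beside each group is the mean ± SD (n = 3). The dotted line is the 4.21 limit for testing. Dmbt1 in SRC-2 null livers lies near 3.15 and in wild-type livers near 7.15, while the 7 higher genes lie between 5.05 and 6.72 in SRC-2 null livers and between 4.0 and 5.41 in wild-type livers.

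Dmbt1 encodes a large secreted scavenger receptor glycoprotein that binds bacteria at mucosal surfaces. Its level was 3.28, 2.98 and 3.20 in SRC-2 null livers, against 6.94, 7.32 and 7.19 in wild-type livers. All 3 SRC-2 null values lay below 4.21, and the groups were separated by a gap of 3.66. The mean was 3.15 ± 0.16 in SRC-2 null and 7.15 ± 0.19 in wild-type liver (SD, n = 3 each), a 15.9-fold lower level and the largest fall of any tested gene. Because the SRC-2 null level was under 4.21, the fold can be understated. By replicate number the difference was -3.66, -4.34 and -3.98. The genes whose values over the 6 arrays followed Dmbt1 most closely were Rhbg, Mpeg1 and Car3, with Pearson correlations of 0.9997, 0.9990 and 0.9990. Such correlations hold mostly the step between the 2 genotypes, and 298 tested genes reached at least 0.95 with Dmbt1.

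9030619P08Rik is annotated as a transcribed pseudogene on chromosome 15, among genes of the Ly6 family of small surface proteins. It read 5.26, 5.56 and 5.38 in SRC-2 null livers, against 8.01, 8.28 and 8.22 in wild-type livers. Both groups were well above the limit for testing, so this fall, unlike that of Dmbt1, was measured on both sides. The means were 5.40 ± 0.15 and 8.17 ± 0.14 (SD, n = 3 each) in SRC-2 null and wild-type livers, a 6.80-fold lower level. By replicate number the difference was -2.75, -2.71 and -2.84. Its probe set may share signal with near-identical Ly6 copies, so which transcript it reads is uncertain. Rnase4, Nit2 and Thrsp followed it most closely (r = 0.9992, 0.9989 and 0.9984 over 6 arrays), and 316 tested genes reached at least 0.95.

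Cnmd encodes chondromodulin, a cartilage glycoprotein that keeps blood vessels from growing in. It read 3.36, 3.33 and 3.58 in SRC-2 null livers, against 5.51, 5.60 and 5.70 in wild-type livers. The SRC-2 null values again lay below 4.21. The means were 3.42 ± 0.14 in SRC-2 null and 5.60 ± 0.09 in wild-type livers (SD, n = 3 each), a 4.52-fold lower level that can be understated. By replicate number the difference was -2.15, -2.27 and -2.11. Fos, H2-Ab1 and an immunoglobulin kappa variable gene followed it most closely (r = 0.9995, 0.9991 and 0.9991), and 331 tested genes reached at least 0.95. Cnmd is the 1 lower gene with a promoter window in the RefSeq table, shown here because it holds none of the 6 motifs searched and a single CpG (GRCm38.p6, chr14:79662134-79662433, minus strand, 5′ to 3′).
Cnmd: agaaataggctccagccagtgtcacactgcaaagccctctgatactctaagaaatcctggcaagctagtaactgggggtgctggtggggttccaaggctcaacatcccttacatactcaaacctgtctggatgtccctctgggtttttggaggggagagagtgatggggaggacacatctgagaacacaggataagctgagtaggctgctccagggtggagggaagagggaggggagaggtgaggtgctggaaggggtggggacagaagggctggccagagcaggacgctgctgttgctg

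Omd encodes osteomodulin, a small leucine-rich proteoglycan of bone matrix. It read 5.79, 5.87 and 5.89 in SRC-2 null livers, against 4.43, 4.43 and 4.67 in wild-type livers. The SRC-2 null values were the tightest of the 10 genes. The means were 5.85 ± 0.05 in SRC-2 null and 4.51 ± 0.14 in wild-type livers (SD, n = 3 each), a 2.53-fold higher level, with differences of 1.36, 1.44 and 1.22 by replicate number. Fabp4, Cryzl2 and Mdh2 followed it most closely (r = 0.9979, 0.9977 and 0.9960), with 189 tested genes at 0.95 or above. Its promoter window (GRCm38.p6, chr13:49582212-49582511, plus strand) is shown for a nuclear receptor half-site, AGGTCA, in capitals, which starts at base 171 counted from the 5′ end.
Omd: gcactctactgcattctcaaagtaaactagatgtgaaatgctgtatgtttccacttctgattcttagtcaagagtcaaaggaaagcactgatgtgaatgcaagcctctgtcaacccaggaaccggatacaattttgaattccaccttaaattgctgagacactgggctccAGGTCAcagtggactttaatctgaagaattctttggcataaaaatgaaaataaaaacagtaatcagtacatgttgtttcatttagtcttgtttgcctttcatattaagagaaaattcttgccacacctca

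Nat8 encodes an N-acetyltransferase whose human counterpart acetylates cysteine conjugates, the last step in making mercapturic acids for excretion. It read 6.37, 6.48 and 6.72 in SRC-2 null livers, against 4.36, 5.41 and 5.12 in wild-type livers. The wild-type values were spread over more than 1 log2 unit, with replicate 1 the lowest. The means were 6.53 ± 0.18 in SRC-2 null and 4.96 ± 0.54 in wild-type livers (SD, n = 3 each), a 2.96-fold higher level. The difference was 2.01, 1.08 and 1.6 by replicate number and 1.26 without wild-type replicate 1. Hspd1, Rogdi and Ints4 followed Nat8 most closely (r = 0.9976, 0.9935 and 0.9928), and 79 tested genes reached at least 0.95.

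Treh encodes trehalase, which splits the sugar trehalose into glucose. It read 5.05, 5.15 and 6.05 in SRC-2 null livers, against 4.0, 4.44 and 4.03 in wild-type livers. Replicate 3 of the SRC-2 null group stood well above the other two, and the gap between the groups, 0.61, was the smallest of the 10 genes. The means were 5.42 ± 0.55 in SRC-2 null and 4.16 ± 0.25 in wild-type livers (SD, n = 3 each), a 2.39-fold higher level against a mean below 4.21. The difference was 1.05, 0.71 and 2.02 by replicate number, and 0.94 without SRC-2 null replicate 3. Timm17a, Atp5g1 and Plxna4 followed it most closely (r = 0.9967, 0.9876 and 0.9829), and 34 tested genes reached at least 0.95, the fewest for any of the 10. The promoter window of Treh (GRCm38.p6, chr9:44672983-44673282, plus strand) is shown for the same half-site on the other strand, TGACCT, in capitals at bases 191 and 280.
Treh: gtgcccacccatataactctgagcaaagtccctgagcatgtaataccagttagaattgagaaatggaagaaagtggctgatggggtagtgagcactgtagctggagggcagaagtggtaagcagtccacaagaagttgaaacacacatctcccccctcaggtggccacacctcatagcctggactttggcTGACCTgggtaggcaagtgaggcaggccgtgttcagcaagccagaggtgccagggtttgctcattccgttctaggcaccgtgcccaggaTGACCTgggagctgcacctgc

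Gal3st1 encodes the sulfotransferase that turns galactosylceramide into sulfatide, a glycolipid of myelin. It read 5.78, 6.02 and 6.31 in SRC-2 null livers, against 4.49, 4.79 and 4.98 in wild-type livers. The means were 6.04 ± 0.26 in SRC-2 null and 4.75 ± 0.25 in wild-type livers (SD, n = 3 each), a 2.44-fold higher level. Levels varied within each genotype, and the difference by replicate number was 1.29, 1.23 and 1.33. Replicates 1 and 2 could not be matched between the genotypes from the data, so the closeness of these differences can rest on the numbering. The genes closest to it were 2610528J11Rik, Dap3 and Ercc3 (r = 0.9981, 0.9966 and 0.9957), with 181 tested genes at 0.95 or above.

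Krt23 encodes a type I keratin, a subunit of the filaments of epithelial cells. It read 5.56, 5.58 and 5.73 in SRC-2 null livers, against 4.12, 4.22 and 4.50 in wild-type livers. The means were 5.62 ± 0.09 in SRC-2 null and 4.28 ± 0.20 in wild-type livers (SD, n = 3 each), a 2.54-fold higher level, with differences of 1.44, 1.36 and 1.24 by replicate number. The wild-type mean was just above the limit for testing. S100a10, Gm7969 and an immunoglobulin kappa variable gene followed Krt23 most closely (r = 0.9988, 0.9975 and 0.9974), with 189 tested genes at 0.95 or above. Its promoter window (GRCm38.p6, chr11:99493071-99493370, minus strand) is shown for an E-box, CACGTG, the site of clock and other basic helix-loop-helix factors, in capitals at base 82.
Krt23: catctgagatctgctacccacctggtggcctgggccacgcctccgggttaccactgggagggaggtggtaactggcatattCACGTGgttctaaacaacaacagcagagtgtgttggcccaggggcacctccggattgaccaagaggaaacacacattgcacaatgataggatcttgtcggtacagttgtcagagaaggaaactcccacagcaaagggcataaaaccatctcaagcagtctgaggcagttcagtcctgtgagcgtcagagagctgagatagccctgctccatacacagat

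Lrtm2 encodes a membrane protein with leucine-rich repeats. It read 5.86, 5.79 and 5.91 in SRC-2 null livers, against 4.15, 4.32 and 4.06 in wild-type livers. The means were 5.85 ± 0.06 in SRC-2 null and 4.18 ± 0.13 in wild-type livers (SD, n = 3 each), a 3.20-fold higher level and the largest rise of the 7. Its wild-type mean was below 4.21, so this fold can be understated as well. The difference was 1.71, 1.47 and 1.85 by replicate number. Hsd17b10, Cyb5a and Alas1 followed it most closely (r = 0.9965, 0.9951 and 0.9950), with 150 tested genes at 0.95 or above.

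Bhlhb9, despite a name that recalls helix-loop-helix factors, encodes a member of a family of proteins that bind G protein-coupled receptors and sort them in the cell. It read 6.14, 5.95 and 6.37 in SRC-2 null livers, against 4.40, 4.88 and 5.01 in wild-type livers. The means were 6.15 ± 0.21 in SRC-2 null and 4.76 ± 0.32 in wild-type livers (SD, n = 3 each), a 2.62-fold higher level, with differences of 1.74, 1.07 and 1.36 by replicate number. Wild-type replicate 1 was the lowest here, as for Nat8, Treh, Gal3st1 and Krt23. Ftcd, Pms1 and Lpl followed Bhlhb9 most closely (r = 0.9958, 0.9951 and 0.9940), with 137 tested genes at 0.95 or above.

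**Figure D2:**
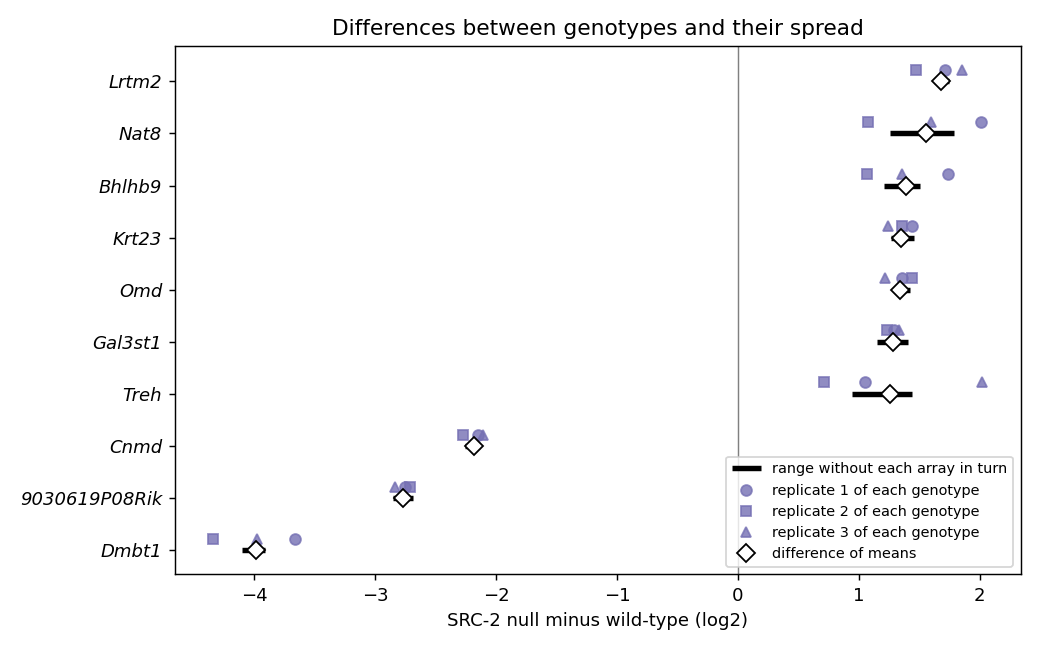
Difference between SRC-2 null and wild-type livers (log2) for each gene: the diamond is the difference of the means, the bar its range when each array was left out in turn, and the symbols the difference within each replicate number. For Treh the replicate differences run from 0.71 to 2.02, for Omd from 1.22 to 1.44 and for Dmbt1 from -4.34 to -3.66.

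The 10 genes differed in how large their difference was against the spread between replicates. For Dmbt1, 9030619P08Rik, Cnmd and Lrtm2 the difference of means was 22.7, 18.8, 18.7 and 16.2 times the pooled within-group SD. For Omd and Krt23 it was 12.9 and 8.75 times, and for Bhlhb9 and Gal3st1 5.17 and 5.03 times. Nat8 and Treh were the least steady, at 3.89 and 2.95 times, and their pooled SDs of 0.40 and 0.43 stood against a median of 0.13 over all tested genes. Ranked by size among all tested genes, the 3 lower genes took places 1, 6 and 13 of the falls, and the 7 higher genes took places 6 to 15 of the rises.

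Among the 7 higher genes the array with the highest value in the SRC-2 null group was replicate 3 in 7 of 7, with a median deviation from the group mean of 0.20, against 0.04 over all tested genes. In the wild-type group replicate 1 was below the group mean for 7 of 7, with a median deviation of -0.16, against -0.03 over all tested genes. By median the other arrays lay on the other side of the group mean, in part because deviations within a group cancel out. SRC-2 null replicates 1 and 2 were each above it for 1 of 7 genes. Wild-type replicates 2 and 3 were each above it for 5 of 7. Median deviations were -0.06 and -0.05 for SRC-2 null replicates 1 and 2, and 0.11 and 0.16 for wild-type replicates 2 and 3. The genes were chosen for their values on these same arrays, so these counts are a description and were not tested.

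The relatives of each gene, listed from protein families and shared pathways, bear on whether a change extended to its kin. Of 106 relatives tested, 8 were called at a limma adjusted p under 0.05, 1 higher and 7 lower. This share can be set beside 4.67% of all tested genes called, 1.55% higher and 3.13% lower. The median log2 fold change of the relatives was 0.00, equal to that of all tested genes. The 8 calls became 4 without SRC-2 null replicate 1, and 5 without SRC-2 null replicate 2 or without wild-type replicate 2. The other 98 were not called. The difference between a gene and its list was not tested.

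**Figure D3:**
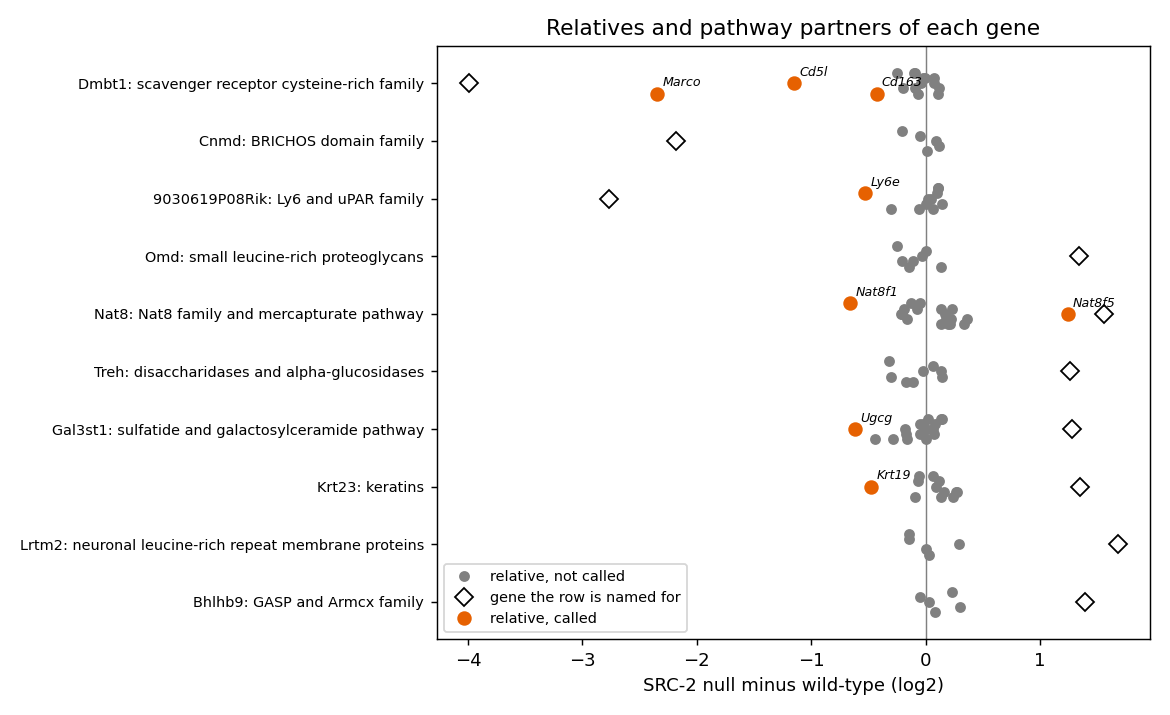
Log2 fold change, SRC-2 null against wild-type, of the tested relatives and pathway partners of each of the 10 genes. Grey circles are relatives that were not called, orange circles are the 8 called relatives, and open diamonds are the gene itself, which was chosen for its difference; Marco (-2.35) lies closest to its diamond among the falls and Nat8f5 (1.24) among the rises.

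The scavenger receptor family of Dmbt1 held 3 of the 7 lower relatives, of 16 tested, with a family median of -0.08. Marco, a macrophage receptor for bacteria, read 5.99, 5.99 and 6.08 in SRC-2 null livers, against 8.45, 8.39 and 8.26 in wild-type livers (log2 fold change -2.35, SE 0.09, limma adjusted p = 4.2e-06). Cd5l, a secreted scavenger protein of macrophages, fell by 1.15 (adjusted p = 8.65e-05). Cd163, the haemoglobin scavenger receptor, fell by 0.43 (adjusted p = 0.0304), a call that was lost when any array was left out. All 3 are also macrophage markers. Of 16 macrophage markers tested 15 were called lower, with a median of -0.97 and a highest log2 fold change of -0.43. Their summed level was 11.63 to 11.72 in SRC-2 null and 12.70 to 12.76 in wild-type livers. Fewer macrophages and less RNA per macrophage cannot be told apart in whole liver. The part of macrophages in the difference of Dmbt1 was not tested.

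Few kin of the other genes were called. None of 5 tested members of the BRICHOS family of Cnmd was called, and the smallest unadjusted p was that of Itm2c (log2 fold change -0.21, adjusted p = 0.243). None of 7 small leucine-rich proteoglycans was called beside Omd: Lum, a collagen-binding proteoglycan, had a log2 fold change of -0.25 (limma adjusted p = 0.211). The neighbours Ogn and Aspn, proteoglycan genes on either side of Omd that were picked out after their values were seen, lay below the limit for testing, with 3.73 and 2.64 in SRC-2 null livers, against 3.73 and 2.59 in wild-type livers. Of 11 Ly6 relatives of 9030619P08Rik, Ly6e alone was called. It fell by 0.53 (adjusted p = 0.0154), and the call was lost without SRC-2 null replicate 1, SRC-2 null replicate 2 or wild-type replicate 2.

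None of 8 disaccharidases and glucosidases was called beside Treh, the smallest p being that of Mgam, maltase-glucoamylase (log2 fold change -0.30, limma adjusted p = 0.165). In the sulfatide pathway of Gal3st1, 1 of 18 genes was called. This was Ugcg, which makes glucosylceramide, the parallel branch of glycolipid synthesis, and it fell by 0.62 (adjusted p = 0.0165). The call of Ugcg was lost without SRC-2 null replicate 1 or 2, and 3 further probe sets of the gene had log2 differences of -0.05, -0.34 and -0.04. It was also lost with the mean of all 4 probe sets (log2 fold change -0.26, limma adjusted p = 0.266). Arsa, the sulfatase that breaks sulfatide down, averaged 7.66 in SRC-2 null and 7.67 in wild-type livers; it was picked out with its value known.

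Among 12 keratins tested beside Krt23, Krt19 fell by 0.48 (limma adjusted p = 0.013), opposite to Krt23. It read 5.01, 5.07 and 5.01 in SRC-2 null livers, against 5.43, 5.57 and 5.52 in wild-type livers, and the call was lost without SRC-2 null replicate 1 or wild-type replicate 2. Krt19 is a keratin of bile duct cells. The hepatocyte keratins Krt8 and Krt18, picked out with their values known, were 0.13 and 0.27 higher on the log2 scale, neither past the threshold (limma adjusted p = 0.517 and 0.206). None of 5 neuronal leucine-rich repeat genes was called beside Lrtm2 (Lrrc4b, log2 fold change 0.29, adjusted p = 0.339, called at an adjusted p of 0.0436 without SRC-2 null replicate 3). None of 5 relatives of Bhlhb9 was called either (Armcx2, log2 fold change 0.30, limma adjusted p = 0.214). The other Armcx2 probe sets went the opposite way, at -0.16 and -0.47, and the mean of all its probe sets gave -0.11 (adjusted p = 0.749).

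Nat8 lies in a cluster of closely related acetyltransferase genes on chromosome 6, and these moved in different directions. Nat8f5, the gene next to Nat8, read 6.11, 6.13 and 6.19 in SRC-2 null livers, against 4.74, 4.93 and 5.03 in wild-type livers (log2 fold change 1.24, SE 0.10, limma adjusted p = 0.00025). Nat8f1 read 8.77, 8.89 and 8.91 in SRC-2 null livers, against 9.59, 9.50 and 9.45 in wild-type livers (log2 fold change -0.66, SE 0.09, limma adjusted p = 0.00358). Both calls held without each array in turn. Nat8f2 and Nat8f4, which lie between Nat8 and Nat8f1, were 0.19 and 0.18 higher on the log2 scale, neither past the threshold (limma adjusted p = 0.335 and 0.333). Their other probe sets were higher by more, at 0.34 and 0.30 for Nat8f2 and 0.28 and 0.42 for Nat8f4, and were not tested singly. Nat8f3 was below the limit for testing, at 3.16 in SRC-2 null and 3.0 in wild-type livers.

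The rise of Nat8f5 was close in size to the 1.56 of Nat8, and wild-type replicate 1 was the lowest wild-type array for both. That array was below the wild-type mean for all 7 higher genes, so this is not particular to the pair. Probe sets of so close a family may share transcripts, so the identity of each signal is uncertain. A second Nat8f1 probe set lay in the background range (3.07 in SRC-2 null and 3.02 in wild-type livers), and with the mean of both probe sets the log2 fold change was -0.30 (adjusted p = 0.102). The wider list joined the Nat8 family, the mercapturate pathway and further genes such as Gclc, Gclm, Gss, Ergic2 and Ergic3. Of its 19 tested genes, Nat8f5 and Nat8f1 were the called ones and 17 were not called, with a median log2 fold change of 0.13.

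**Figure D4:**
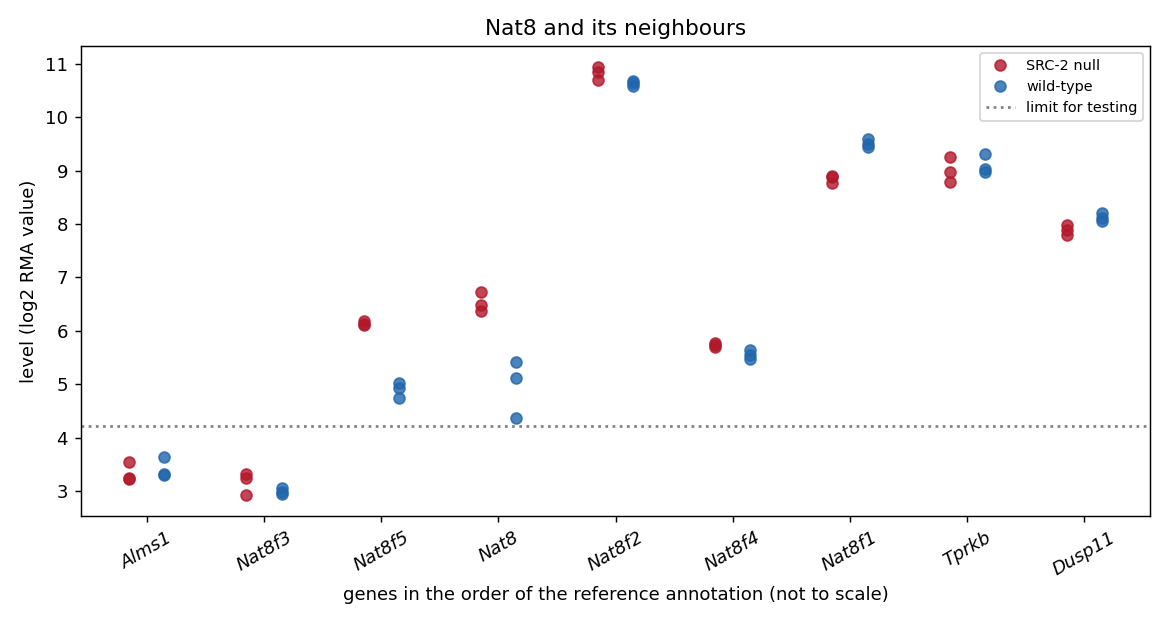
Levels (log2 RMA values) of Nat8 and the measured genes around it on the 3 SRC-2 null and 3 wild-type arrays, in annotation order and not to scale; the dotted line is the 4.21 limit for testing. All SRC-2 null arrays lie above all wild-type arrays for Nat8f5, Nat8, Nat8f2 and Nat8f4 and below them for Nat8f1 and Dusp11, of which Nat8f2, Nat8f4 and Dusp11 were not called; levels of different genes come from different probe sets and are not comparable.

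The 10 genes lie on 8 chromosomes. Around them, 47 of 100 neighbours (the 5 nearest protein-coding genes on either side) were tested, and 3 were called, beside the 4.67% of all tested genes. These were Nat8f5, Nat8f1 and Wnt5b, a secreted Wnt ligand near Lrtm2 that rose by 0.51 (limma adjusted p = 0.014). The Wnt5b call was lost without SRC-2 null replicate 1 or 2, or without wild-type replicate 1 or 2, and with the mean of its probe sets. When each gene's probe sets were averaged, 1 neighbour was called. Beside the other genes the tested neighbour with the smallest p did not pass: Elf1 at Cnmd (log2 fold change -0.46, limma adjusted p = 0.122), Ly6g2 at 9030619P08Rik (-0.32, 0.172), Sec14l2 at Gal3st1 (-0.18, 0.269), Gprasp1 at Bhlhb9 (0.23, 0.288), Krt10 at Krt23 (0.24, 0.303), Tacc2 at Dmbt1 (-0.20, 0.382), Ttc36 at Treh (0.13, 0.542) and Bicd2 at Omd (-0.13, 0.591). Bex4, an X-linked neighbour of Bhlhb9 picked out after its values were seen, had a mean of 4.06, just below the limit for testing. It read 4.97, 4.45 and 4.68 in SRC-2 null livers, against 3.06, 3.68 and 3.54 in wild-type livers. The groups did not overlap, and the log2 difference of 1.27 was close in size to the 1.39 of Bhlhb9. With no limit on low values Bex4 was called as well (limma adjusted p = 0.0057), making 4 called neighbours.

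Several of the genes are known from kidney, cartilage, gut or other epithelia, and markers of these and other cells were measured on the same arrays. A list sum takes in all listed genes on the arrays, also those below the limit for testing. None of 5 kidney tubule markers tested, of 14 listed, was called, while Nat8, Treh and Gal3st1 were higher in SRC-2 null livers. The kidney list sum was 8.61 to 8.65 in SRC-2 null and 8.60 to 8.73 in wild-type livers. None of 4 cartilage markers tested, of 10 listed, was called, while Cnmd was lower and Omd higher. The cartilage list sum did not overlap, at 7.33 to 7.36 in SRC-2 null and 7.20 to 7.32 in wild-type livers. None of 4 exocrine pancreas markers tested, of 12 listed, was called. The pancreas list sum did not overlap, at 7.88 to 7.97 in SRC-2 null and 8.11 to 8.17 in wild-type livers. Of 3 neuronal markers tested, of 11 listed, 1 was called lower, the synaptic vesicle gene Syt1 (log2 fold change -0.45, limma adjusted p = 0.0427), while Lrtm2 was higher. The median of the 3 was -0.01, with 1 of 3 above 0 and a highest log2 fold change of 0.14. The neuronal list, Syt1 included, summed to 7.49 to 7.65 in SRC-2 null and 7.67 to 7.81 in wild-type livers, also without overlap.

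Some markers of other cells were called. Of 5 cholangiocyte markers tested 2 were called lower, Cd24a by 1.0 (limma adjusted p = 0.00752) and Krt19. The median of the 5 was -0.09, with 2 of 5 above 0 and a highest log2 fold change of 0.26. The list sum was 8.69 to 8.86 in SRC-2 null and 8.87 to 9.03 in wild-type livers, without overlap. Of 5 intestinal epithelial markers tested, of 12 listed, 2 were called higher. The median of the 5 was 0.11, with 3 of 5 above 0 and a lowest log2 fold change of -0.25. Tff3, a mucosal repair peptide, rose by 1.24 (limma adjusted p = 0.00367) and Fabp2, a fatty acid-binding protein, by 0.41 (limma adjusted p = 0.034). The list sum was 9.71 to 9.85 in SRC-2 null and 9.48 to 9.52 in wild-type livers. Of 3 adipocyte markers tested, of 8 listed, 2 were called higher, Cidec and Fabp4, and the lowest log2 fold change was 0.30. The adipocyte list sum was 8.77 to 8.92 in SRC-2 null and 7.23 to 7.53 in wild-type livers. Of 14 stellate cell and fibroblast markers Rgs5 and Sparc were called higher, but the list median was -0.07, with 5 of 14 above 0. Of 12 endothelial markers Flt1 was called higher, with a list median of 0.03 and 7 of 12 above 0. Of 5 B and plasma cell markers tested 3 were called lower, Ighm and Jchain among them, and the highest log2 fold change was -0.46. The part of any of these cells in the differences of the 10 genes was not tested.

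The RefSeq table (GRCm38.p6) held promoter windows, from 250 bases before to 50 after the gene start, for 8 of the 10 genes, in 12 windows. The half-site AGGTCA on either strand was in 2 of the 12 windows, those of Omd and Treh, and in 16.3% of all 32851 windows. The E-box CACGTG was in 1 of the 12, that of Krt23, and in 7.15% of all windows. CCAAT on either strand was in 4 of the 12, from Gal3st1 and Nat8, and in 37.4% of all windows. Overlapping Gal3st1 windows, starting at 3983386 and 3983401, hold the same CCAAT match, which is counted in both. The TATA box TATAAA, the AP-1 site TGACTCA and the D-box of clock output factors, each searched on both strands, were in none of the 12 windows and in 13.6%, 5.20% and 0.938% of all windows. The windows of the 8 genes ran from 1 to 18 CpG dinucleotides, and 7 of 12 were below the overall median of 7, as were 47.9% of all windows. No feature searched was in the windows of all 8 genes.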

How the data were processed

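RNA abundance was measured in SRC-2 null and wild-type mouse liver on short oligonucleotide arrays, 3 per genotype. The authors deposited log2 values made with RMA, per the submitters' processing notes. The sources used here give no RMA version and no genome build. RMA compresses folds near background. Of 45101 probe sets, 34958 had exactly 1 symbol in the platform annotation, for 18194 genes; the brightest probe set by mean stood for its gene. Genes with a mean of at least 4.21, the median of all probe sets, were tested with limma 3.58.1 in R 4.3.3 (lmFit and eBayes, two-sided, genotype as the only term), with calls at 0.05 after Benjamini-Hochberg adjustment. The procedure was tested on simulated data. No arrays were identical, and the p-values cover only the spread among these 6 arrays, which can be technical. Summed levels are log2 of the summed linear values of all genes of a list on the arrays, tested or not.

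Deviations from the group means correlated between same-numbered arrays at r = 0.18, 0.203 and 0.517. The numbers were therefore taken as a possible pairing, used for the differences by replicate number and for the replicate block. The main fit, which gave the calls, did not use it. This pairing comes from the data, not from the labels, and replicates 1 and 2 could not be told apart in it. The 10 genes and all lists were chosen with earlier results of these data known. Genes named by rule were the 10 genes, Ncoa2, called relatives and neighbours (where none was called, the one with the smallest p), up to 2 called markers a list, and the 3 genes with the highest correlation to each of the 10. Named outside this rule were Ogn, Aspn, Arsa, Krt8, Krt18, Bex4, Nat8f2, Nat8f3, Nat8f4 and Dusp11, and the genes that show the make-up of the Nat8 list. Alternatives left out each array, added the replicate block, centred or requantiled arrays, averaged probe sets, changed the filter, the moderation or the number of neighbours. Plots used matplotlib 3.10.9 under Python 3.11.15.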

Additional observations from a re-analysis of the deposited data

How the results depend on the processing

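For the 10 genes, whose groups do not overlap, leaving out an array cannot turn the sign of a difference, and the replicate block and the mean of probe sets cannot move it. Replicate 3 alone, an alternative chosen after seeing the data, moved the difference by more than 1 pooled SD for Omd (1.22), Treh (2.02) and Lrtm2 (1.85). The number of genes called over all genes, 556, was 275 to 438 without each array in turn (301 and 294 without SRC-2 null replicates 1 and 2, 329 and 275 without wild-type replicates 1 and 2) and 329 with replicates 1 and 2 only. With the replicate block it was 832, with 9 relatives and 3 neighbours called, and no named relative or neighbour lost its call. The 8 called relatives were 4 to 8 without each array in turn, 5 with replicates 1 and 2 only and 6 with the mean of all probe sets, which turned the log2 fold change of Armcx2, not called, to -0.11. The 3 called neighbours were 2 to 3 without each array in turn, 1 with the mean of all probe sets, 4 with no filter on low values (Bex4 was gained) and 7 of 101 tested with 10 genes on either side, a setting that tests more genes. With replicates 1 and 2 only, 14 macrophage markers were called lower, against 15 with all arrays. Of 9 called relatives and neighbours, 4 (Marco, Cd5l, Nat8f5 and Nat8f1) stayed called without each array. The cause of the other losses was not tested. With 3 arrays a genotype, no array could be tested as an outlier.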
